A study of Mus musculus with 36 samples.

Results

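The kidney clears drugs, urate and many metabolites through families of membrane carriers, and 56 genes of these families were followed in mouse kidney cortex. They were all the genes in the count table whose symbols begin with Slc22a, Slco, Slc47a, Slc17a, Abcb, Abcc or Abcg followed by a number. Genes were taken by name and by no measured value, though the choice was made with earlier results of these data known. The 56 genes, out of 15730 in the table, comprise 22 Slc22a, 8 Slco, 2 Slc47a, 6 Slc17a, 7 Abcb, 8 Abcc and 3 Abcg genes. A choice by family name also takes in members with other tasks, among them mitochondrial Abcb carriers, the potassium channel subunit Abcc9 and vesicle carriers of the Slc17a family.

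RNA came from the kidney cortex of male ApoE−/− mice on the C57BL/6 background, so every group lacked apolipoprotein E. Diabetic mice had received streptozotocin, which kills pancreatic beta cells, by intraperitoneal injection on 5 days (55 mg/kg a day) at 6 weeks of age, and nondiabetic mice had not. In each state, mice were given LXA4 (5 µg/kg), benzo-LXA4 (1.7 µg/kg) or ethanol vehicle (0.1%) by intraperitoneal injection 2 times a week. LXA4 is lipoxin A4, a lipid mediator of the resolution of inflammation, and benzo-LXA4 is its synthetic analog, in which a benzene ring is fused into the molecule. The labels describe an intervention design with dosing in weeks 10 to 16 and do not tie these libraries to it outright. The 6 groups were diabetic mice with LXA4, benzo-LXA4 or vehicle and nondiabetic mice with LXA4, benzo-LXA4 or vehicle, with 6 libraries each. The labels do not say that replicates were separate mice, so p-values measure the spread between these samples. Streptozotocin diabetes models loss of insulin in a strain prone to atherosclerosis, and no mouse with intact Apoe was analysed here.

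Cells of the proximal tubule take organic anions and cations from the blood across their basolateral membrane and pass them to the urine across their luminal brush border. Slc22a carriers do most of the uptake, Slc47a carriers exchange cations for protons at the lumen, Slc17a carriers move urate and phosphate, and the Abc pumps export conjugates and drugs with energy from ATP. Several members are known from mice and rats to differ between males and females under the control of sex hormones.

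Total counts ran from 8896193 to 43305005 per library. Ribosomal and other structural RNA genes made up 56.7% of all counts in diabetic LXA4 replicate 6 and 17.6% in nondiabetic vehicle replicate 3, the shallowest pair of libraries, and at most 6.78% in the other 34. For some of the results that rest on this pair, values without it are also given. The labelled tissue held abundant proximal tubule markers, with 33522 summed CPM on average in nondiabetic vehicle mice over 19 measured markers. Sums there were 6776 CPM for 8 loop of Henle and distal tubule markers, 233 CPM for 6 podocyte and 70.8 CPM for 7 liver markers. These sums cover unlike numbers of genes and are not scaled by length. CPM are counts scaled to a common library total, after correction by TMM factors. Of the listed markers, 19 of 20 for proximal tubule, 7 of 8 for liver and 9 of 10 for macrophages and T cells were in the deposited table. Its rarest gene had 370 counts over all libraries, so presence in the table already meant detection.

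Levels can be compared between genes only per length of transcript, so they were ranked by FPKM, here CPM per kilobase of exon, averaged over the 36 libraries. Slc22a12 (URAT1), which takes urate back from the urine, was highest at 373 FPKM. Slc22a18, an imprinted gene for a putative cation carrier, followed at 180 FPKM, Slc17a1 (NPT1), a phosphate and urate carrier of the brush border, at 177 FPKM, Slc22a28 at 174 FPKM and Slc47a1 (MATE1), which exports cations into the urine, at 158 FPKM. The anion carrier Slc22a6 (OAT1) stood at 142 FPKM. The 5 highest genes held a median of 44.1% of the summed FPKM of all members per library (range 36.2% to 47.2%). At the other end, Abcb4, the phospholipid flippase of bile canaliculi, stood at 0.054 FPKM. Between these ends the members spread over a wide range, and 28 of them were above 7.86 FPKM.

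**Figure D1:**
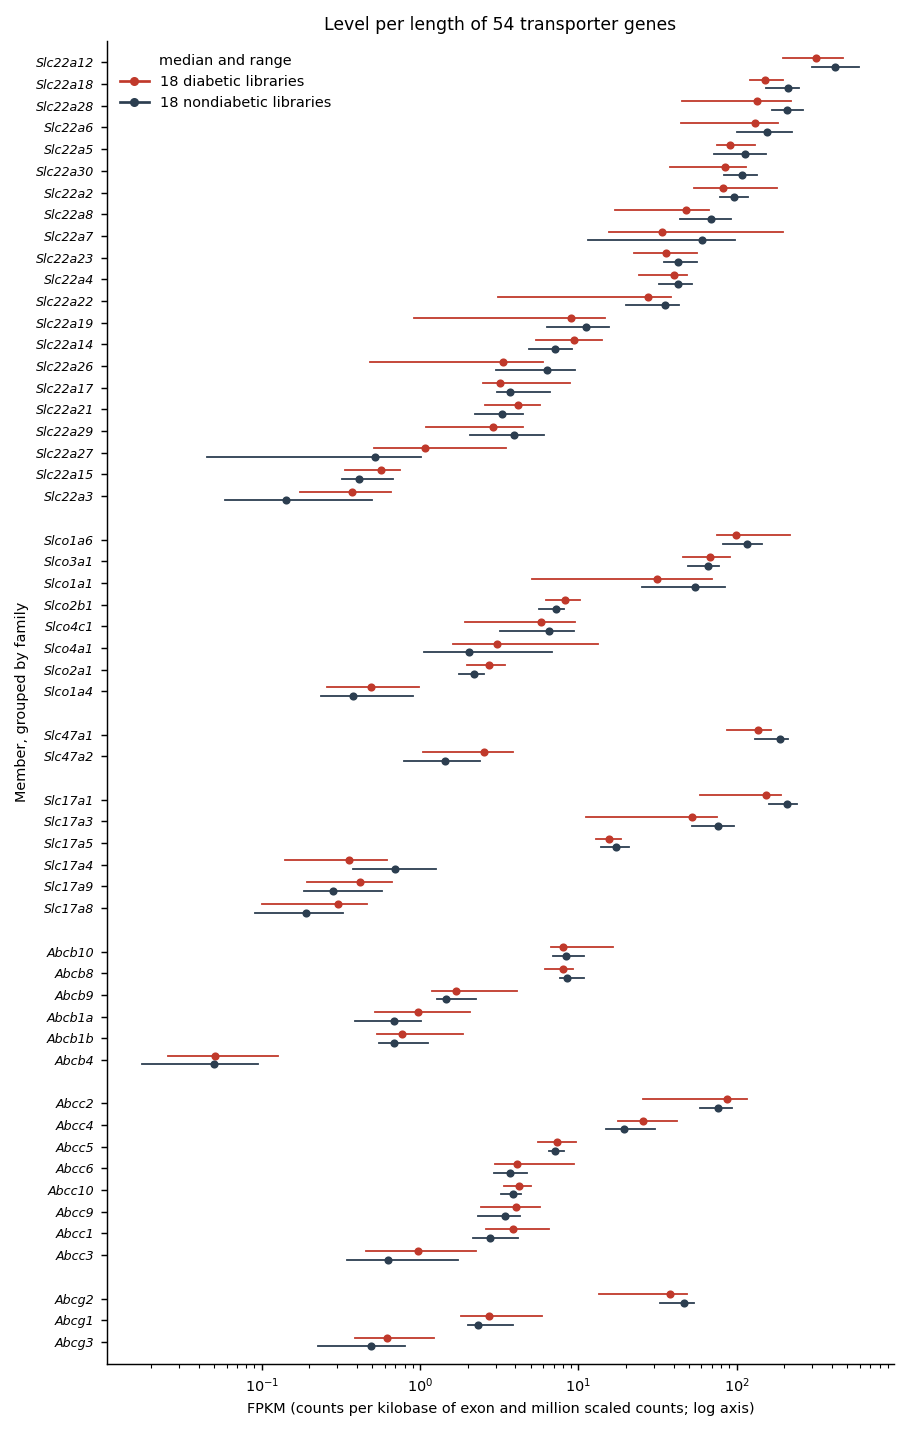
Level of 54 members in FPKM (log axis) by family, with the median as a point and the range as a line over 18 diabetic (red) and 18 nondiabetic libraries (dark blue). Slc22a12 stands highest and Abcb4 lowest, and the lines of the groups overlap for every member shown.

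Summed by family, the Slc22a genes were the largest pool of transporter RNA, and their mean was lower in diabetic mice under each treatment. Their summed level averaged 1378 ± 165, 1386 ± 145 and 1348 ± 347 FPKM in diabetic mice with LXA4, benzo-LXA4 and vehicle, against 1886 ± 152, 1623 ± 164 and 1733 ± 252 FPKM in nondiabetic mice with the same treatments (SD, n = 6 each). The Slc17a sum averaged 205 ± 63.9, 235 ± 37.7 and 203 ± 46.2 FPKM in diabetic mice with LXA4, benzo-LXA4 and vehicle, against 324 ± 24.7, 283 ± 31.1 and 294 ± 46.2 FPKM in nondiabetic mice. The Abcc sum alone averaged higher in diabetic mice under each treatment, at 122 ± 27.6, 139 ± 15.0 and 147 ± 20.7 FPKM in diabetic mice with LXA4, benzo-LXA4 and vehicle against 118 ± 6.95, 123 ± 10.5 and 116 ± 11.2 FPKM in nondiabetic mice. A sum follows its most abundant genes, and these sums were not tested. In bulk tissue, fewer cells of a type and less RNA per cell cannot be told apart.

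Diabetes changed 36 of the 56 transporters when the 18 diabetic libraries were set against the 18 nondiabetic ones over the 3 treatments, and most of the abundant ones that changed fell, while most of the rarer ones that changed rose. The test was edgeR's quasi-likelihood F test, and a gene was called at a Benjamini-Hochberg adjusted p under 0.05 over all 15726 genes tested. Of the members, 18 rose and 18 fell, together 64.3%, where 35.4% of all genes tested were called (18.8% higher and 16.6% lower). The 10 members with the highest FPKM included 7 that fell and 0 that rose, and the 10 with the lowest FPKM included 7 that rose and 1 that fell. Of the 28 members above 7.86 FPKM, 15 fell (53.6%) and 2 rose. Among all genes in the same FPKM range, 29.4% fell and 9.61% rose. Of the 28 members below 7.86 FPKM, 16 rose (57.1%) and 3 fell, where 23.1% of all such genes rose and 10.6% fell. The median log2 difference of the members was −0.07, against 0.01 for all genes.

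**Figure D2:**
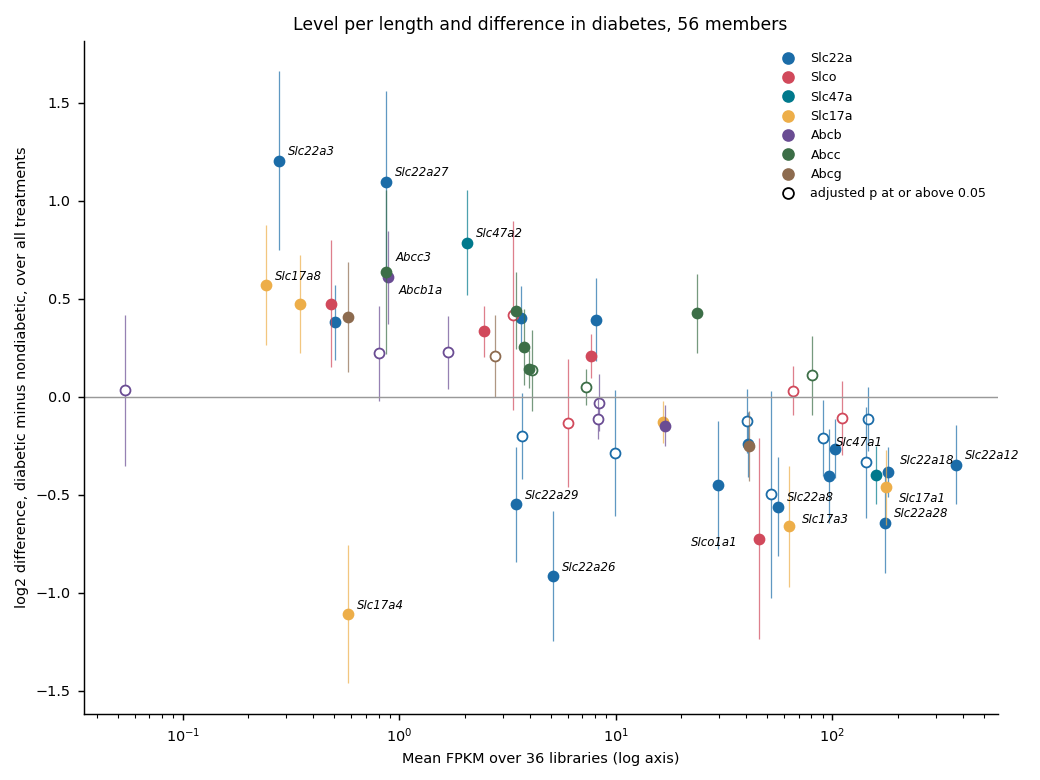
Log2 difference of diabetic against nondiabetic mice over the 3 treatments (vertical axis) for each of the 56 members by its level in FPKM (horizontal log axis), coloured by family, with filled points for the 36 members at adjusted p under 0.05. Filled points above 7.86 FPKM lie below 0 in 15 of 17 cases, and filled points under it lie above 0 in 16 of 19.

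By family, the Slc22a genes split into 5 that rose and 10 that fell, the Slc17a genes into 2 and 4, the Slco genes into 3 and 1, and the Abcc genes into 5 and 0. The median log2 difference was −0.28 in Slc22a, −0.30 in Slc17a, 0.12 in Slco, 0.20 in Abcc and 0.03 in Abcb, and all 8 Abcc genes were on the higher side. Slc47a2 rose and Slc47a1 fell in their family, Abcg3 rose and Abcg2 fell in theirs, and Abcb1a rose in the Abcb family.

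Markers of proximal tubule and male-biased kidney genes moved beside the members that fell. Of 19 measured proximal tubule markers, 0 rose and 14 fell, and of 10 male-biased genes, 0 rose and 7 fell. Kap, Cyp4b1 and Akr1c21 stand in both lists, so the lists are not separate evidence. Kap alone had a median of 5867 CPM over the 36 libraries and enters both sums. Summed proximal tubule markers averaged 23389, 25382 and 24322 CPM in diabetic mice with LXA4, benzo-LXA4 and vehicle, against 37599, 30874 and 33522 CPM in nondiabetic mice with the same treatments. Single libraries ran from 16621 to 31671 CPM in diabetic mice and from 24129 to 40473 CPM in nondiabetic mice. Summed male-biased genes averaged 7861, 9240 and 8487 CPM in diabetic mice, against 15302, 11824 and 12614 CPM in nondiabetic mice. Of 7 markers of the late proximal tubule, 1 rose and 3 fell, and Cyp7b1 and Acsm3 of this list are also among the male-biased genes. Beside the members that rose, 3 of 6 podocyte markers and 4 of 9 macrophage and T cell markers rose and 0 fell, where 18.8% of all genes rose. Of 8 markers each, 2 rose and 1 fell for loop of Henle and distal tubule, and 1 rose and 0 fell for collecting duct. For endothelium 1 of 8 rose and 1 fell, for liver 1 of 7 rose and 1 fell, and for urothelium and inner medulla 0 of 8 rose or fell. The macrophage and T cell markers summed to 113, 120 and 131 CPM in diabetic mice with LXA4, benzo-LXA4 and vehicle, against 114, 112 and 108 CPM in nondiabetic mice. Their part in the members' values was not tested.

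The basolateral carriers of organic anions come first in the order of transport. Slc22a8 (OAT3), which takes up organic anions in exchange for dicarboxylates, fell in diabetic mice. It had a lowest, median and highest value of 66.8, 187 and 261 CPM in diabetic mice, against 171, 271 and 360 CPM in nondiabetic mice (n = 18 each). All 18 diabetic libraries lay under the nondiabetic median, and the ranges overlapped. Its log2 difference was −0.56 (95% interval −0.81 to −0.31, adjusted p = 0.00076). Slc22a6 (OAT1), the classical carrier of para-aminohippurate and next to Slc22a8 on chromosome 19, had 176, 521 and 732 CPM in diabetic mice against 401, 615 and 887 CPM in nondiabetic mice. Its log2 difference of −0.34 (interval −0.62 to −0.05) missed the threshold with an adjusted p of 0.0606. It passed in 5 of the 36 fits that left out 1 library, those without diabetic vehicle replicate 1, 2 or 6, diabetic LXA4 replicate 2 or nondiabetic vehicle replicate 3 (adjusted p down to 0.0293), and without the pair of libraries rich in structural RNA (log2 difference −0.31, adjusted p = 0.0362). Slc22a7 (OAT2), an anion carrier whose level differs between male and female rodents, stood at 33.0, 70.6 and 415 CPM in diabetic mice and at 24.1, 128 and 204 CPM in nondiabetic mice. The 415 CPM came from diabetic LXA4 replicate 6. With it the log2 difference of Slc22a7 was −0.50 (interval −1.03 to 0.03, adjusted p = 0.134), and without it −0.78 (adjusted p = 0.00348).

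The 250 bases before the starts of Slc22a6 and Slc22a8 are shown because both hold GTTAAT, the half-site of hepatocyte nuclear factor 1, a regulator known to drive these genes in the proximal tubule. The sequences are from RefSeq on GRCm38.p6, at chr19:8617746-8617995 and chr19:8592932-8593181 on the plus strand, with the motif in capitals.
Slc22a6: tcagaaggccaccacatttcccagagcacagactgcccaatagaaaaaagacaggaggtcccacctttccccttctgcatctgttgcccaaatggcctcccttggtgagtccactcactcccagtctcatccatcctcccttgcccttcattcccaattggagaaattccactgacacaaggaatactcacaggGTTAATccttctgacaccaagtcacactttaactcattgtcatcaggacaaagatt
Slc22a8: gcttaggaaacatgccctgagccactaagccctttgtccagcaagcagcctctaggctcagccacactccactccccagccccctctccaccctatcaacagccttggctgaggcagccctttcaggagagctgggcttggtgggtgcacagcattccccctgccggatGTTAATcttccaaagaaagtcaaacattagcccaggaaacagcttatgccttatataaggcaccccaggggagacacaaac
The motif begins 56 bases before the start of Slc22a6 and 81 bases before that of Slc22a8, and Slc22a29 also holds it, 29 bases before its start. Both strands were searched in the 53 entries found for 43 of the 56 members. GTTAAT occurred in 3 of them (5.66%), against 6.43% of all 32851 entries of the table. The full palindromic HNF1 site was in 0 member entries and 0.00913% of all entries, and CAAAGTCCA, a site of hepatocyte nuclear factor 4, in 0 and 0.384%. A match describes the letters only.

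Of the members that carry urate at the lumen, 5 fell and Abcc4, described with the pumps, rose. Slc22a12 stood at 441, 720 and 1068 CPM in diabetic mice against 683, 950 and 1335 CPM in nondiabetic mice, a log2 difference of −0.35 (interval −0.55 to −0.15, adjusted p = 0.0067). Of the 18 diabetic libraries, 8 lay under every nondiabetic one. Exons of Nrxn2 on the opposite strand cover 30.1% of its exon length, and the strand setting of the counting is not given in the sources used here.

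Slc17a1, Slc17a3 (NPT4, a voltage-driven urate carrier) and Slc17a4 (NPT5, best known from the intestine) lie in a row on chromosome 13, and all fell. Slc17a1 had 139, 361 and 453 CPM in diabetic mice against 382, 496 and 572 CPM in nondiabetic mice, and 12 of 18 diabetic libraries lay under every nondiabetic one. Its log2 difference was −0.46 (interval −0.65 to −0.27, adjusted p = 0.000275). Slc17a3 had 76.3, 352 and 511 CPM in diabetic mice against 355, 519 and 654 CPM in nondiabetic mice, a log2 difference of −0.66 (interval −0.97 to −0.35, adjusted p = 0.00109). Slc17a4, rare in these libraries, showed the largest fall of any member: 0.839, 2.13 and 3.68 CPM in diabetic mice against 2.25, 4.14 and 7.51 CPM in nondiabetic mice, a log2 difference of −1.11 (interval −1.46 to −0.76, adjusted p = 1.05e-05). For each of the 3 genes all 18 diabetic libraries lay under the nondiabetic median. Abcg2 (BCRP), a luminal pump of urate and many drugs, fell by 0.25 on the log2 scale (adjusted p = 0.024), with 111, 311 and 399 CPM in diabetic mice against 268, 380 and 438 CPM in nondiabetic mice. By contrast Slc2a9, the basolateral urate exit of the tubule and no member of these families, rose with a log2 difference of 0.52 (adjusted p = 2.26e-06).

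Among the carriers of organic cations, the Slc47a genes moved in opposite directions. Slc47a1 (MATE1) had 295, 464 and 561 CPM in diabetic mice against 444, 632 and 711 CPM in nondiabetic mice. All 18 diabetic libraries lay under the nondiabetic median and 7 under every nondiabetic library, with a log2 difference of −0.40 (interval −0.55 to −0.25, adjusted p = 9.95e-05). Slc47a2 (MATE2), its neighbour on chromosome 11, had 2.52, 6.16 and 9.32 CPM in diabetic mice against 1.93, 3.48 and 5.81 CPM in nondiabetic mice. Of the diabetic libraries, 13 of 18 lay above every nondiabetic one, and the log2 difference was 0.79 (interval 0.52 to 1.05, adjusted p = 2.86e-05). Per length, Slc47a2 remained a minor gene, at 2.05 FPKM against 158 FPKM for Slc47a1.

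The basolateral cation carrier Slc22a2 (OCT2) did not pass the test, with a log2 difference of −0.21 (interval −0.41 to −0.01, adjusted p = 0.0869). Without diabetic LXA4 replicate 6, Slc22a2 was at −0.30 (adjusted p = 0.000643). Slc22a3 (OCT3), a cation carrier of wide tissue distribution in the same stretch of chromosome 17, rose more than any other member. It had 0.786, 1.67 and 2.97 CPM in diabetic mice against 0.264, 0.641 and 2.24 CPM in nondiabetic mice, a log2 difference of 1.21 (interval 0.75 to 1.66, adjusted p = 0.000106). All 18 diabetic libraries lay above the nondiabetic median, and the level of Slc22a3 over the series was 0.277 FPKM. Exons of Plg on the opposite strand cover 9.31% of the exon length of Slc22a3.

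The carnitine and ergothioneine carriers form a row on chromosome 11. Slc22a5 (OCTN2), which reclaims carnitine, fell by 0.27 on the log2 scale (adjusted p = 0.00608), with 231, 279 and 404 CPM in diabetic mice against 221, 346 and 469 CPM in nondiabetic mice. Slc22a21 (Octn3), a carnitine carrier known from mice, rose with a log2 difference of 0.40 (adjusted p = 0.000315), with 9.40, 15.2 and 20.8 CPM in diabetic mice against 8.12, 12.0 and 16.2 CPM in nondiabetic mice. Slc22a4 (OCTN1), the ergothioneine carrier, was at −0.12 (interval −0.29 to 0.04, adjusted p = 0.235). Of the 50-base stretches of their transcripts, 26.9% in Slc22a5 and 23.8% in Slc22a21 also occur in the other of the 2 genes, so reads from these stretches could have been split between them.

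A cluster of rodent anion carriers on chromosome 19 held both a fall in its abundant genes and a rise in a rare one. Slc22a28 had 90.6, 269 and 445 CPM in diabetic mice against 336, 416 and 527 CPM in nondiabetic mice, and 14 of 18 diabetic libraries lay under every nondiabetic one. Its log2 difference was −0.64 (interval −0.90 to −0.38, adjusted p = 0.000224). Slc22a30 had 128, 285 and 385 CPM in diabetic mice against 280, 362 and 456 CPM in nondiabetic mice, a log2 difference of −0.40 (interval −0.64 to −0.16, adjusted p = 0.00831). Slc22a26 fell by 0.92 on the log2 scale (adjusted p = 6.63e-05), with 1.42, 9.91 and 17.7 CPM in diabetic mice against 8.84, 18.8 and 28.0 CPM in nondiabetic mice. Slc22a29 fell by 0.55 (adjusted p = 0.00363). Slc22a27 went the other way, with 1.10, 2.31 and 7.56 CPM in diabetic mice against 0.0969, 1.13 and 2.19 CPM in nondiabetic mice and a log2 difference of 1.10 (interval 0.64 to 1.56, adjusted p = 0.000377). Of its diabetic libraries, 9 of 18 lay above every nondiabetic one. Slc22a19 (Oat5), an anion carrier characterised in rats and mice, had 4.96, 48.9 and 80.5 CPM in diabetic mice against 34.4, 60.4 and 84.8 CPM in nondiabetic mice (log2 difference −0.29, adjusted p = 0.16).

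The sequences before the starts of Slc22a28, Slc22a30 and Slc22a27 are shown because the first 2 genes, which both fell, are near copies of each other and Slc22a27, which rose, is not. They are from RefSeq on GRCm38.p6, on the minus strand, at chr19:8131983-8132232, chr19:8405106-8405355 and chr19:7966028-7966277. Capitals mark the bases of Slc22a28 and Slc22a30 that differ or have no partner when these 2 are aligned.
Slc22a28: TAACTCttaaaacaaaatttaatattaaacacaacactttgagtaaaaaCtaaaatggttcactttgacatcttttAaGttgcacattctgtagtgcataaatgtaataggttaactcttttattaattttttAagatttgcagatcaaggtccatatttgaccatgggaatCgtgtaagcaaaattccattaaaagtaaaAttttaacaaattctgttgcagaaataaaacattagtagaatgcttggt
Slc22a30: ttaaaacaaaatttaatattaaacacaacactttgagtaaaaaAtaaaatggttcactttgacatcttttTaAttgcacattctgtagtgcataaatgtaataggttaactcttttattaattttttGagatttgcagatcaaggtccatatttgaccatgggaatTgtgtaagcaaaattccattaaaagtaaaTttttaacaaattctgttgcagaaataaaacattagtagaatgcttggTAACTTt
Slc22a27: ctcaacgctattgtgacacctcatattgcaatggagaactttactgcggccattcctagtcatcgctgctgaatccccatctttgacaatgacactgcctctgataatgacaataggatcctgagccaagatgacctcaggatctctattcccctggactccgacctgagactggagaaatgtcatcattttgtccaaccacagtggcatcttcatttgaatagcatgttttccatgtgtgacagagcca
Slc22a28 and Slc22a30 were identical in 238 of 256 aligned columns (93%), with 12 columns of gaps. Slc22a27 was identical to Slc22a28 in 49.3% of columns. Slc22a26 and Slc22a29, which both fell, were identical to Slc22a28 in 54.1% and 65.1%, and Slc22a19, which was not called, in 63%. Whether likeness of these sequences goes with direction was not tested. The transcripts share stretches as well: 53.3% of the 50-base stretches of Slc22a28 occur in Slc22a30 and 32% of those of Slc22a30 in Slc22a28, and 25.8% of those of Slc22a27 occur in Slc22a29 and 24.4% of those of Slc22a29 in Slc22a27. Counts within these pairs are therefore uncertain in how reads were divided, and the opposite directions of Slc22a27 and Slc22a29 stand under that limit. Over all families, 11 of 56 members shared over 5% of their stretches with any other gene and 30 shared 0%.

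Of the other Slc22a genes, Slc22a18, at rank 2 of the members by FPKM (rank 3 on the longest transcript), fell. It stood at 208, 256 and 332 CPM in diabetic mice against 260, 358 and 420 CPM in nondiabetic mice, all 18 diabetic libraries lay under the nondiabetic median, and the log2 difference was −0.38 (interval −0.51 to −0.26, adjusted p = 2.15e-05). Slc22a22 (OAT-PG), a prostaglandin carrier of the mouse proximal tubule, fell by 0.45 (adjusted p = 0.0284), and Slc22a23, an orphan carrier, fell by 0.24 (adjusted p = 0.0209). Slc22a14, best known from sperm, and Slc22a15, whose known substrates are zwitterions, rose with log2 differences of 0.39 (adjusted p = 0.00356) and 0.38 (adjusted p = 0.00201). Slc22a17, a receptor for lipocalin 2, was at −0.20 (adjusted p = 0.146), and at −0.29 without diabetic LXA4 replicate 6 (adjusted p = 0.00135). The call of Slc22a22 was lost without diabetic vehicle replicate 4 or 5 (adjusted p up to 0.0501).

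**Figure D3:**
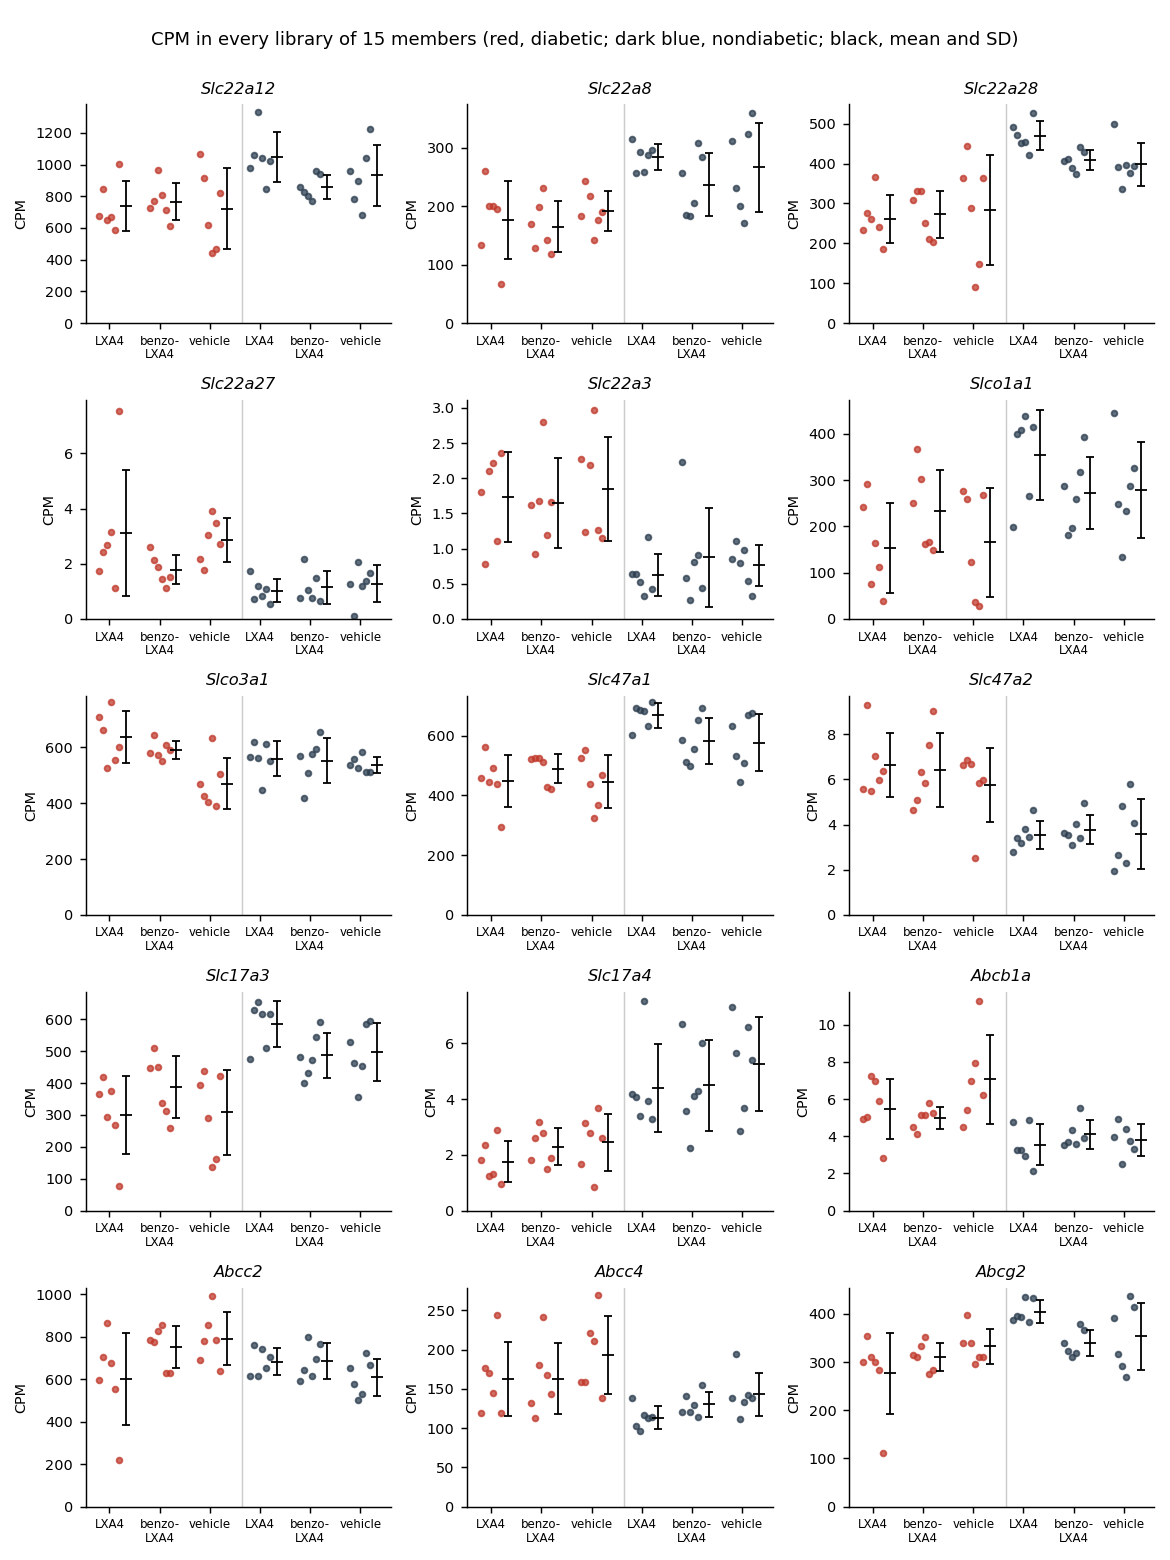
CPM of 15 members in every library, with LXA4, benzo-LXA4 and vehicle groups of diabetic mice (red) left of those of nondiabetic mice (dark blue), and the mean and SD of 6 libraries in black. Slc22a28, Slc47a1, Slc17a3 and Slc17a4 are lower in most diabetic libraries and Slc47a2 and Slc22a3 higher, and diabetic LXA4 replicate 6 is the single high point of Slc22a27 at 7.56 CPM.

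In the Slco family, which carries bile acids, steroid conjugates, prostaglandins and thyroid hormones, 3 genes rose and 1 fell. Slco1a1 (Oatp1a1), which in the mouse kidney is male-predominant and depends on androgen, had 26.9, 165 and 368 CPM in diabetic mice against 133, 287 and 446 CPM in nondiabetic mice. Under the nondiabetic median lay 15 of 18 diabetic libraries, and Slco1a1 fell by 0.72 on the log2 scale (interval −1.24 to −0.21, adjusted p = 0.0243). Slco2a1, the prostaglandin uptake carrier, rose with a log2 difference of 0.33 (interval 0.21 to 0.46, adjusted p = 0.000134). It had 26.9, 37.0 and 46.7 CPM in diabetic mice against 23.9, 29.6 and 34.6 CPM in nondiabetic mice, and 13 of 18 diabetic libraries lay above every nondiabetic one. Slco2b1 and Slco1a4, carriers of steroid conjugates and bile acids, rose as well, with log2 differences of 0.21 (adjusted p = 0.00381) and 0.48 (adjusted p = 0.0202). The abundant Slco1a6 and Slco3a1 were at −0.11 (interval −0.30 to 0.08, adjusted p = 0.376; −0.18 and 0.0466 without diabetic LXA4 replicate 6) and 0.03 (interval −0.10 to 0.16, adjusted p = 0.745). Slco4a1, a thyroid hormone carrier, was at 0.42 (adjusted p = 0.176) and Slco4c1, a carrier of cardiac glycosides in the kidney, at −0.13 (adjusted p = 0.555).

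The remaining Slc17a genes act inside cells. Slc17a5 (sialin), which exports sialic acid from lysosomes, fell by 0.13 on the log2 scale (adjusted p = 0.0497), a call held in 11 of the 36 fits that left out 1 library each and lost in the others (adjusted p up to 0.106). Slc17a8, a vesicular glutamate carrier, and Slc17a9, a vesicular nucleotide carrier, rose with log2 differences of 0.57 (adjusted p = 0.00365) and 0.47 (adjusted p = 0.00307), at 0.241 and 0.347 FPKM.

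Among the ATP-driven pumps, Abcb1a, 1 of a pair of mouse genes for P-glycoprotein, the pump of many drugs, rose. It had 2.83, 5.35 and 11.3 CPM in diabetic mice against 2.13, 3.74 and 5.54 CPM in nondiabetic mice, with 17 of 18 diabetic libraries above the nondiabetic median and a log2 difference of 0.61 (interval 0.37 to 0.85, adjusted p = 0.000168). Its neighbour and paralog Abcb1b was at 0.22 (interval −0.02 to 0.46, adjusted p = 0.152), and 15.5% of the 50-base stretches of Abcb1a occur in Abcb1b and 18% of those of Abcb1b in Abcb1a. Of the mitochondrial carriers, Abcb8 was at −0.11 (adjusted p = 0.076) and Abcb10 at −0.03 (adjusted p = 0.772). Abcb9, a peptide carrier of lysosomes, was at 0.23 (adjusted p = 0.054) and the scarce Abcb4 at 0.03 (adjusted p = 0.921). Abcb8 passed without diabetic vehicle replicate 1 or diabetic LXA4 replicate 6 (adjusted p down to 0.04). Abcb9 passed in 10 of the 36 fits without 1 library (down to 0.0266), which left out diabetic vehicle replicate 3 or 6, diabetic LXA4 replicate 2, 3, 5 or 6, diabetic benzo-LXA4 replicate 3, nondiabetic vehicle replicate 3 or 4 or nondiabetic benzo-LXA4 replicate 3.

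Of the 8 Abcc pumps, 5 rose in diabetic mice and 0 fell. Abcc4 (MRP4), a luminal exporter of urate, cyclic nucleotides and prostaglandins, had 113, 163 and 270 CPM in diabetic mice against 96.2, 125 and 194 CPM in nondiabetic mice, a log2 difference of 0.43 (interval 0.22 to 0.63, adjusted p = 0.00124). Abcc1 (MRP1), a basolateral exporter of glutathione conjugates, had 39.6, 58.6 and 99.2 CPM in diabetic mice against 32.4, 41.6 and 62.3 CPM in nondiabetic mice, a log2 difference of 0.44 (adjusted p = 0.000703). Abcc3 (MRP3), an exporter of glucuronides, Abcc10 (MRP7), a drug exporter, and Abcc9, the regulatory subunit of a potassium channel of vascular muscle, rose with log2 differences of 0.64 (adjusted p = 0.0159), 0.14 (adjusted p = 0.0205) and 0.25 (adjusted p = 0.0387). The call of Abcc9 held in 22 of the 36 fits without 1 library (adjusted p up to 0.0703 in the others). Abcc2 (MRP2), the luminal pump of conjugates and the most abundant Abcc gene at 80.4 FPKM, had 217, 740 and 990 CPM in diabetic mice against 502, 653 and 800 CPM in nondiabetic mice, with overlapping ranges and a log2 difference of 0.11 (interval −0.09 to 0.31, adjusted p = 0.414). The 217 CPM came from diabetic LXA4 replicate 6, without which Abcc2 was at 0.17 (adjusted p = 0.0345). Abcc5, an exporter of cyclic nucleotides, was at 0.05 (adjusted p = 0.425) and Abcc6, a pump tied to the release of ATP, at 0.14 (adjusted p = 0.309). In the Abcg family, Abcg3, a gene of rodents, rose with a log2 difference of 0.41 (adjusted p = 0.0213), Abcg2 fell as given above, and Abcg1, a cholesterol exporter of macrophages, was at 0.21 (interval 0.00 to 0.42, adjusted p = 0.111).

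Each treatment was also compared on its own, with 6 diabetic against 6 nondiabetic libraries that enter no other of these comparisons. The direction was the same in all 3 comparisons for 41 of 56 members (73.2%; 19 higher and 22 lower), where 54.8% of all genes tested had the same sign throughout. The number of members called differed between the comparisons and with single libraries left out. For fits without some libraries, the share of all genes called is not given here, so those counts describe nothing particular to the members.

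**Figure D4:**
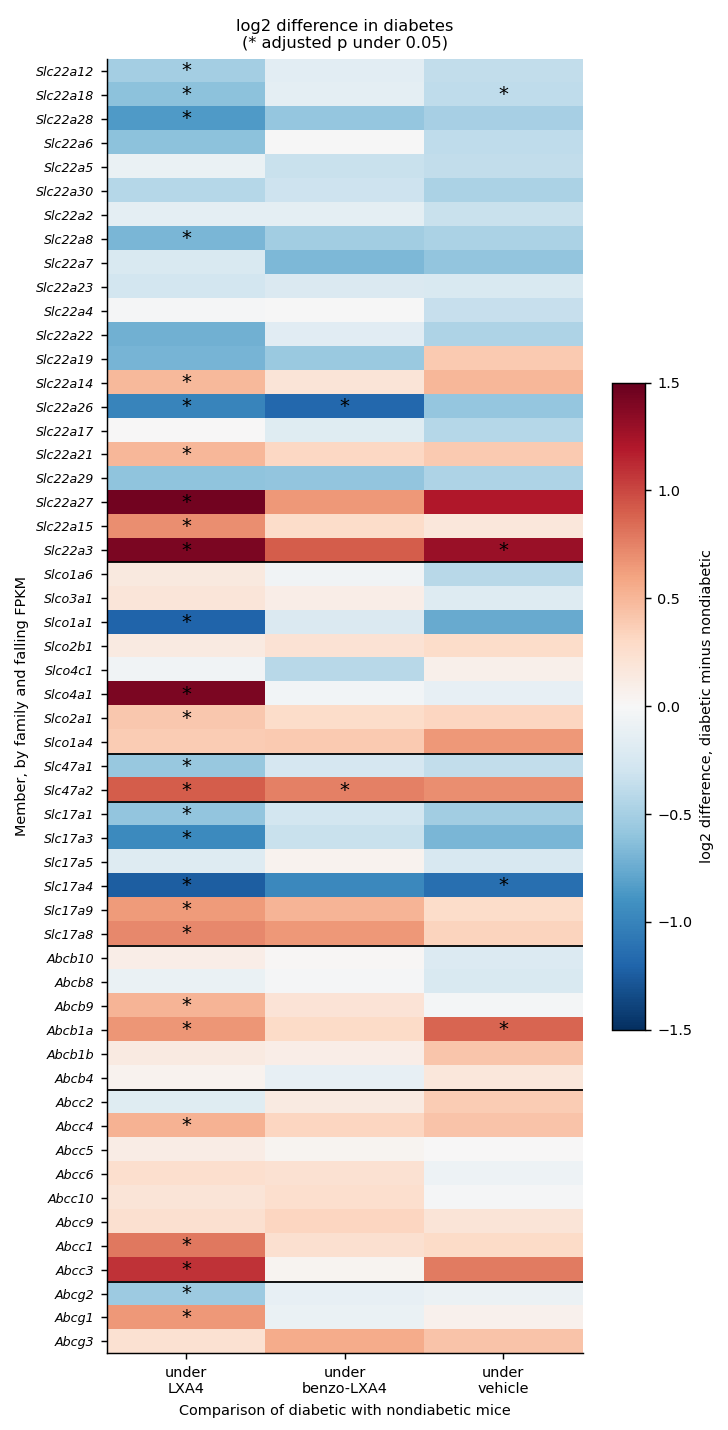
Log2 difference of diabetic against nondiabetic mice (colour, red higher in diabetic mice) for 54 members, in rows by family and falling FPKM, under LXA4, benzo-LXA4 and vehicle, with a star at adjusted p under 0.05. Most rows keep 1 colour across the columns, and stars number 27, 2 and 4 under LXA4, benzo-LXA4 and vehicle.

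Under vehicle, diabetic mice had 4 members called, 2 higher and 2 lower (7.14%), where 5.6% of all genes were called (3.44% higher and 2.16% lower). Slc22a3 had 1.15, 1.73 and 2.97 CPM in diabetic vehicle mice against 0.322, 0.825 and 1.11 CPM in nondiabetic vehicle mice (n = 6 each), without overlap, and a log2 difference of 1.30 (adjusted p = 0.0432). It was the only member without overlap under vehicle (1.79%), where 2.58% of all genes tested had none. Abcb1a had 4.51, 6.60 and 11.3 CPM in diabetic vehicle mice against 2.52, 3.85 and 4.94 CPM in nondiabetic vehicle mice, a log2 difference of 0.88 (adjusted p = 0.0085), and its call was kept in all 12 fits without 1 of these libraries. Slc17a4 fell by 1.13 (adjusted p = 0.0202) and Slc22a18 by 0.38 (adjusted p = 0.0297). The call of Slc17a4 was lost without diabetic vehicle replicate 4 or nondiabetic vehicle replicate 1 (adjusted p up to 0.0645), that of Slc22a18 without diabetic vehicle replicate 3, 4 or 5 or nondiabetic vehicle replicate 1, 3, 5 or 6 (up to 0.115), and that of Slc22a3 without diabetic vehicle replicate 1, 3, 4 or 5 or nondiabetic vehicle replicate 1, 3, 5 or 6 (up to 0.129). The number of members called ran from 1 without nondiabetic vehicle replicate 1, through 2 without diabetic vehicle replicate 3, 4 or 5 or nondiabetic vehicle replicate 6, to 8 without diabetic vehicle replicate 2 or nondiabetic vehicle replicate 4. Without the pair rich in structural RNA, of which nondiabetic vehicle replicate 3 is 1, 10 were called (4 higher, 6 lower), with Slc17a1, Slc17a3, Slc22a5, Slc22a27, Slc47a1 and Slc47a2 added. With all libraries, Slc47a1 was at −0.37 (adjusted p = 0.0806) and Slc47a2 at 0.69 (adjusted p = 0.0684) under vehicle. Slc47a1 passed without diabetic vehicle replicate 2 or nondiabetic vehicle replicate 3 and Slc47a2 without diabetic vehicle replicate 4 or nondiabetic vehicle replicate 5 (adjusted p down to 0.0313 and 0.0183). Slc17a1 at −0.52 (adjusted p = 0.0514) passed without diabetic vehicle replicate 2 or 6 or nondiabetic vehicle replicate 4, and Slc22a27 at 1.20 (adjusted p = 0.0638) without diabetic vehicle replicate 2. Slc22a7 at −0.59, Slco1a1 at −0.75, Slco1a4 at 0.65, Abcc3 at 0.78 and Abcg3 at 0.43 did not pass in any of the fits without 1 library.

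Under LXA4, diabetic mice had 28 members called, 16 higher and 12 lower (50%), where 27.7% of all genes were called (15.4% higher and 12.3% lower). Beside these calls, 13 of 19 proximal tubule markers and 7 of 10 male-biased genes fell under LXA4 and 0 rose. These lists share Kap, Cyp4b1 and Akr1c21. Of 8 markers of urothelium and inner medulla, 2 rose and 0 fell. The median log2 difference of these 8 was 2.12 under LXA4, −0.77 under benzo-LXA4 and −0.65 under vehicle. They summed to between 23.2 and 224 CPM in diabetic LXA4 libraries, against 12.0 to 61.1 CPM in nondiabetic LXA4 libraries, and their part in the members' values was not tested. The groups did not overlap for 13 members (23.2%), where they did not for 12.1% of all genes tested. Slc22a28 had 186, 252 and 367 CPM in diabetic LXA4 mice against 422, 464 and 527 CPM in nondiabetic LXA4 mice. Slc47a1 had 295, 452 and 561 CPM in diabetic LXA4 mice against 603, 684 and 711 CPM in nondiabetic LXA4 mice. Slc22a18 had 208, 251 and 264 CPM in diabetic LXA4 mice against 337, 373 and 420 CPM in nondiabetic LXA4 mice. These 3 fell by 0.85, 0.57 and 0.61 on the log2 scale, with an adjusted p of 0.000222 for Slc22a18. Slc22a27, Slc22a3, Slco4a1 and Abcc3 had the largest rises, with log2 differences of 1.44, 1.41, 1.41 and 1.09, and Slc17a4, Slco1a1, Slc22a26 and Slc17a3 the largest falls, at −1.24, −1.20, −0.99 and −0.96. Diabetic LXA4 replicate 6 held the highest Slc22a27 value of its group, 7.56 CPM, where the next was 3.16 CPM. It also held the lowest values of Slc22a26, 1.42 CPM next to 9.32 CPM, and of Slc17a3, 76.3 CPM next to 268 CPM. The rise of Slco4a1 rested on diabetic LXA4 replicate 5. It had 11.3, 17.6 and 64.0 CPM in diabetic LXA4 mice against 5.07, 8.98 and 12.8 CPM in nondiabetic LXA4 mice, and without that replicate its log2 difference was 0.77 (adjusted p = 0.127). The call of Slco1a1 (adjusted p = 0.0406) was lost without diabetic LXA4 replicate 3, 4, 5 or 6 or nondiabetic LXA4 replicate 2, 3, 4 or 6 (up to 0.0861). The call of Abcc3 was lost without diabetic LXA4 replicate 3 or 5 or nondiabetic LXA4 replicate 1 or 6 (up to 0.0939), that of Slc22a12 without diabetic LXA4 replicate 3 or 5 or nondiabetic LXA4 replicate 3 (up to 0.0656) and that of Abcc4 without diabetic LXA4 replicate 5 or nondiabetic LXA4 replicate 3 (up to 0.102). The call of Abcb9 was lost without diabetic LXA4 replicate 6 (0.0582), that of Slc17a9 without nondiabetic LXA4 replicate 2 or 6 (up to 0.0638), and those of Slc17a8 and Slc22a14 in 8 and 9 of the 12 fits without 1 library (up to 0.0904 and 0.101). The number called ran from 23 to 30 when 1 library was left out, and it was 33 (17 higher, 16 lower) without the pair rich in structural RNA, of which diabetic LXA4 replicate 6 is 1.

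Under benzo-LXA4, diabetic mice had 2 members called, 1 higher and 1 lower (3.57%), where 4.06% of all genes were called (2.81% higher and 1.25% lower). Slc22a26 had 5.35, 9.11 and 12.3 CPM in diabetic benzo-LXA4 mice against 14.1, 19.9 and 28.0 CPM in nondiabetic benzo-LXA4 mice, without overlap, a log2 difference of −1.17 (adjusted p = 0.0134) that stayed called in all 12 fits without 1 of these libraries. Slc47a2 had 4.63, 6.08 and 9.02 CPM in diabetic benzo-LXA4 mice against 3.11, 3.58 and 4.93 CPM in nondiabetic benzo-LXA4 mice, a log2 difference of 0.76 (adjusted p = 0.0487). Its call was lost without diabetic benzo-LXA4 replicate 3, 4, 5 or 6 or nondiabetic benzo-LXA4 replicate 1, 2, 3, 4 or 5 (up to 0.149). Slc22a28 also did not overlap, with 202, 279 and 332 CPM in diabetic benzo-LXA4 mice against 374, 409 and 442 CPM in nondiabetic benzo-LXA4 mice, and its log2 difference of −0.59 had an adjusted p of 0.14. Slc22a26 and Slc22a28 were the only members without overlap under benzo-LXA4 (3.57%), where 5.81% of all genes tested had none. Slc22a3 was at 0.91 (adjusted p = 0.198), and at 1.46 (adjusted p = 0.0217) without nondiabetic benzo-LXA4 replicate 1, whose 2.24 CPM was the highest nondiabetic value of the series. Slc17a4 was at −0.96 (adjusted p = 0.0572) and passed without diabetic or nondiabetic benzo-LXA4 replicate 3 (down to 0.0261). The number called was 1 without diabetic benzo-LXA4 replicate 4, 5 or 6 or nondiabetic benzo-LXA4 replicate 2, 4 or 5, it was 3 without nondiabetic benzo-LXA4 replicate 3, and 5 were called without the pair rich in structural RNA, neither of which belongs to these groups.

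Whether the diabetic difference itself depended on the treatment was tested as an interaction. No member was called for the interaction of LXA4 with diabetes in edgeR, where 0.248% of all genes were (0.21% higher and 0.0382% lower), and none for that of benzo-LXA4, where 0% were. DESeq2 and voom also called 0 members. Unadjusted p-values under 0.05 were found for 11 of 56 members with LXA4 and 4 with benzo-LXA4. Of all 15726 genes tested, 2592 and 673 had them. A different response to diabetes under LXA4 and under vehicle, where 28 and 4 members were called, is thus not shown. The largest interactions were those of Slco4a1 with LXA4, at a log2 difference of 1.53 (interval 0.34 to 2.73, adjusted p = 0.205), and of Slc22a19, at −1.08 with LXA4 (interval −1.88 to −0.29, adjusted p = 0.189) and −0.95 with benzo-LXA4 (interval −1.74 to −0.16, adjusted p = 0.973). The LXA4 value of Slco4a1 includes the 64.0 CPM of diabetic LXA4 replicate 5. That of Slc22a19 includes the 4.96 CPM of diabetic LXA4 replicate 6, next to 28.2 CPM in its group.

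Neither compound changed a member past the threshold of the edgeR test within diabetic or nondiabetic mice. With LXA4 in diabetic mice 0 members were called in edgeR, where 0.356% of all genes were (0.312% higher and 0.0445% lower). DESeq2 and voom each called 1 member, Slco3a1. With benzo-LXA4 in diabetic mice and with either compound in nondiabetic mice 0 members and 0% of all genes were called in edgeR, and 0 members in DESeq2 and voom. Unadjusted p-values under 0.05 were found for 7 of 56 members with LXA4 and 4 with benzo-LXA4 in diabetic mice, and for 2 and 0 in nondiabetic mice. Of all 15726 genes tested, 2468 and 891 had them in diabetic mice, and 967 and 452 in nondiabetic mice. The compounds were given at different doses, so their values stand side by side without a test between them. Both sets of diabetic comparisons use the same vehicle libraries.

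Slco3a1, a carrier of prostaglandins and thyroid hormone, was closest to the threshold. In diabetic mice it had 526, 632 and 765 CPM with LXA4 and 552, 584 and 645 CPM with benzo-LXA4, against 388, 447 and 633 CPM with vehicle. With each compound all 6 libraries lay above the mean of the vehicle libraries, although 1 vehicle library, replicate 4 at 633 CPM, lay within their ranges. Its log2 difference was 0.44 with LXA4 (interval 0.22 to 0.65, adjusted p = 0.0599) and 0.33 with benzo-LXA4 (interval 0.11 to 0.55, adjusted p = 0.45). The LXA4 value passed the threshold without diabetic vehicle replicate 4 or diabetic LXA4 replicate 3 or 5 (adjusted p down to 0.0109). In nondiabetic mice Slco3a1 had 447, 564 and 620 CPM with LXA4 and 421, 572 and 654 CPM with benzo-LXA4, against 511, 531 and 584 CPM with vehicle.

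**Figure D5:**
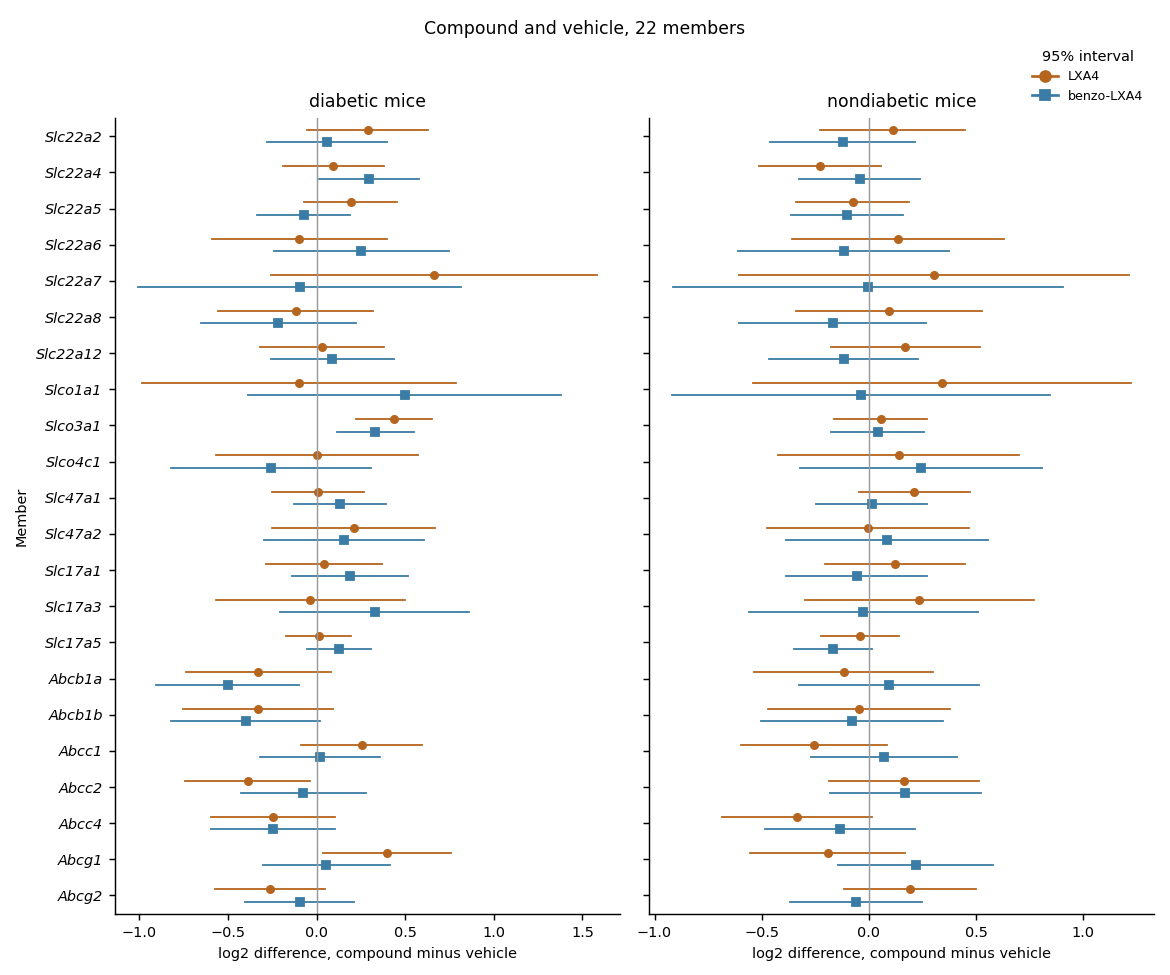
Log2 difference of each compound against vehicle with its 95% interval for 22 members, in diabetic mice (left) and nondiabetic mice (right), with LXA4 as circles and benzo-LXA4 as squares at their different doses. Both intervals of Slco3a1 lie above 0 in diabetic mice, at 0.22 to 0.65 for LXA4 and 0.11 to 0.55 for benzo-LXA4.

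Slco1a6 in diabetic mice was at 0.48 with LXA4 (adjusted p = 0.173) and 0.19 with benzo-LXA4 (adjusted p = 1), and without the pair of libraries rich in structural RNA at 0.25 with LXA4 (adjusted p = 0.386). Abcc2 was at −0.39 with LXA4 (adjusted p = 0.274), and without that pair at −0.22 (adjusted p = 0.386). Abcb1a was at −0.50 with benzo-LXA4 (adjusted p = 0.723) and Abcc10 at 0.23 with benzo-LXA4 (adjusted p = 0.561). In nondiabetic mice Slco4a1 was at −0.90 with LXA4 (interval −1.75 to −0.05, adjusted p = 0.812) and Slc22a15 at −0.41 (adjusted p = 0.807). A p that misses the threshold does not show that a level was the same.

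Genes that work with the transporters were called about as often as all genes, of which 35.4% were called over the 3 treatments. Of 21 measured partner carriers, 3 rose and 5 fell. Slc15a1 (PEPT1), a peptide carrier, rose with a log2 difference of 1.38 (adjusted p = 4.33e-08), Slc2a9 as given above and Slc43a3, a carrier of purine bases, with 0.28 (adjusted p = 0.00889). Slc51a, a subunit of the basolateral steroid and bile acid exporter, Slc15a2 (PEPT2), Slc26a1, a sulfate carrier, Slc13a3, which returns the dicarboxylates that the basolateral anion carriers exchange, and Slc29a3, a nucleoside carrier, fell by 0.73, 0.50, 0.39, 0.34 and 0.23. Of 17 measured scaffolds and regulators, 1 rose and 4 fell. Pdzk1, the scaffold that holds luminal carriers at the brush border, fell by 0.43 (adjusted p = 3.09e-05), and Hnf4a and Hnf4g, hepatocyte nuclear factors, by 0.30 and 0.25. Nr1h3, the oxysterol receptor LXR alpha, fell by 0.28, and Prlr, the prolactin receptor, rose with 0.44 (adjusted p = 0.038). Under vehicle alone, Slc13a3 (log2 difference −0.59, adjusted p = 0.0204) and Pdzk1 (−0.55, adjusted p = 0.00794) fell and Slc15a1 rose (1.02, adjusted p = 0.0188).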

How the data were processed

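Libraries were directional and made from total RNA of kidney cortex after ribosomal RNA was removed, per the labels' protocols. The authors deposited unnormalized gene counts, whole numbers with a different total in each of the 36 libraries. The submitters' processing notes name bcl2fastq 2.17.1.14 for base calls, STAR for alignment, featureCounts for counting and GRCm38 as the build. Which versions of STAR and featureCounts and which annotation the authors used, whether counting used strand and what became of multiply mapped reads is not given in the sources used here. In the table were 15730 genes, the lowest with 370 counts over all libraries, and no unmatched columns (0).

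The test on counts was edgeR's quasi-likelihood F test (edgeR 4.0.16, R 4.3.3), in 1 fit over the 6 groups after TMM scaling and edgeR's low-count filter (15726 genes kept, all 56 members among them). The 10 comparisons were diabetic with nondiabetic mice over all treatments and under each, each compound with vehicle in each state, and each compound's interaction with diabetes. P-values were adjusted by the Benjamini-Hochberg method over every gene tested. Counting error and depth enter through this model. FPKM were computed on exon-union lengths of GENCODE M21, in which 15692 of the table's genes were found, and coordinates from it and from RefSeq count from 1. Sequences were aligned with Biopython 1.88. The code was tested on simulated counts with known changes. No 2 libraries held identical counts.

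Members past the threshold, textbook renal members, the extremes of each family under vehicle and the 5 highest by FPKM were named by a set rule, and the remaining members were named after their values were seen. Values of 2 members are not reported here, though counts over the 56 include them. The members and gene lists were chosen with earlier results of these data known, and the pair of libraries rich in structural RNA was taken from an earlier description of these data. Alternatives were DESeq2 1.42.0, RLE factors, no low-count filter, a filter at a mean of 5 CPM, a fit of the compared groups only, the replicate number as a block, limma 3.58.1 voom with quality weights, leaving out each library, leaving out that pair, and the longest transcript as the length.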

Additional observations from a re-analysis of the deposited data

Results flagged for a closer look

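Of 120 groups of 6 libraries examined for 20 members, 8 held 1 library far from the others by Dixon's criterion, which chance alone meets in about 1 of 20 groups. Diabetic LXA4 replicate 6, the library with 56.7% structural RNA, was 3 of the 8. In it, Slc22a27 stood at 7.56 CPM, where the next value of the group was 3.16 CPM, Slc17a1 at 139 CPM against 330 CPM, and Abcg2 at 111 CPM against 283 CPM. Members outside these 20 were not examined by this criterion, and some of them also stood apart in this library. Among those were Slc22a7 at 415 CPM next to 103 CPM, Slc22a2 at 448 CPM next to 209 CPM and Slc22a17 at 39.9 CPM next to 15.7 CPM. Slc47a2 stood lowest at 2.52 CPM in diabetic vehicle replicate 4, next to 5.85 CPM. Slc22a3 stood highest at 1.17 CPM in nondiabetic LXA4 replicate 5, next to 0.644 CPM, and at 2.24 CPM in nondiabetic benzo-LXA4 replicate 1, next to 0.910 CPM. Slc17a4 stood at 7.51 CPM in nondiabetic LXA4 replicate 4, next to 4.17 CPM, and Abcc4 at 194 CPM in nondiabetic vehicle replicate 2, next to 142 CPM.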

How the results depend on the processing

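Of 70 calls of single members in the diabetes comparisons, 70 held under DESeq2, without the low-count filter and under voom, 69 with RLE factors, 67 without the pair of libraries rich in structural RNA, 46 of the 48 refitted with a filter at a mean of 5 CPM, 18 of the 34 refitted on the compared groups only, and 53 in every fit that left out 1 library. No call changed sign. The over-all comparison held 36 members, between 32 and 43 without 1 library, and was not refitted on the compared groups only, since it uses all of them.

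The 4 members called under vehicle became 9 with DESeq2, 18 with voom, 10 without the pair of libraries, 1 with the filter at 5 CPM and 0 on the compared groups only, and ran from 1 to 8 without 1 library. The 28 under LXA4 became 16 on the compared groups only, and ran from 23 to 30. The 2 under benzo-LXA4 became 4 with DESeq2, 12 with voom, 9 on the compared groups only, 5 without the pair and 1 with the filter, and ran from 1 to 3. The 0 with LXA4 in diabetic mice became 1, Slco3a1, with DESeq2, voom or the filter, and ran from 0 to 1. The causes were not tested. The share of all genes called under each alternative is not given here, so these counts describe nothing particular to the members. Counts of the other comparisons were 0 under all alternatives run. Of values outside the threshold, Abcb10 over all treatments was at 0.0020 with the filter, and Abcb4 at −0.064 with voom, −0.018 without the pair and from −0.029 to 0.089 without 1 library. In the fits other than those without 1 library, the median of all genes lay within 0.053 of 0 (log2).

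With the longest transcript in place of the exon union, summed levels in nondiabetic vehicle mice were 378 FPKM in place of 257 for Slco, 373 in place of 294 for Slc17a, 44.9 in place of 37.7 for Abcb, 136 in place of 116 for Abcc and 65.6 in place of 46.4 for Abcg. The order of the highest members changed as well. Slc17a1 moved from rank 3 to 2, Slc22a18 from 2 to 3, Slc47a1 from 5 to 4 and Slc22a28 from 4 to 5.

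The labels do not say that replicate numbers pair the samples. Libraries of different groups were correlated on log CPM after each gene's group mean was subtracted. Same-numbered libraries exceeded 0.1 in 29 of 90 pairs (median −0.0035, range −0.417 to 0.465). Among libraries of other groups, 4 of 36 libraries correlated best with their own number. These values do not settle whether some samples were paired. With the number as a replicate block, 5 members were called under vehicle, 28 under LXA4, 1 under benzo-LXA4 and 36 over all treatments, and the calls of Slc47a2 under benzo-LXA4 (adjusted p = 0.0508) and of Slc17a5 over all treatments (0.0635) were lost.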
